A study of Mus musculus with 6 samples.

Results

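A muscle fiber whose surface membrane is torn during contraction reseals it within seconds, and 10 genes of this repair were examined in dystrophic mouse muscle. They were listed by name: *Dysf*, *Trim72*, *Cav3* and *Capn3*, which are mainly genes of the fiber itself, and *Myof*, *Ahnak*, *Anxa1*, *Anxa2*, *Anxa5* and *Anxa6*, which many cell types express. The 10 genes were taken from 21154 genes that could be named on the array, through every probe designed on a RefSeq transcript of the gene. They had 15 probes, and 14 of these, for 9 genes, were well above background in all 6 muscles. *Dysf*, *Trim72*, *Cav3*, *Anxa2*, *Anxa5* and *Anxa6* had 1 probe each, so that no second probe could be set beside their values. *Myof* had 1 probe, which was not well above background in any muscle of either genotype.

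The tissue was tibialis anterior (TA) muscle, 3 samples of *mdx* and 3 of N1ICD-*mdx* mice, all on a mixed 129 × C57BL/6 background, fed regular chow and given as 9 months old. All 6 mice carried the *mdx* mutation and lacked dystrophin, so that no muscle with dystrophin was measured here. In N1ICD-*mdx* mice, MCK-Cre, driven by the muscle creatine kinase promoter of differentiated fibers, also switched on the intracellular domain of Notch1 from the Rosa26 locus. The 3 arrays were two-color, and each paired the muscles of the same replicate number, with Cy3 always on *mdx* and Cy5 always on N1ICD-*mdx*. Without a dye swap, genotype and dye cannot be told apart. The question asked of each gene was whether activation of Notch1 in fibers went with another level of its RNA in whole muscle.

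In membrane repair, calcium that enters through a tear draws proteins and vesicles to the site. Dysferlin is a C2-domain protein of the fiber membrane that binds phospholipid in the presence of calcium and helps vesicles to fuse there. MG53, the product of *Trim72*, is a muscle TRIM protein that gathers vesicles at the injury. Caveolin-3 shapes the caveolae of the fiber and binds both of them, and calpain-3 is a muscle protease that cleaves, among other proteins, AHNAK. Annexins are calcium-dependent phospholipid-binding proteins that form a cap at the lesion. Loss of dysferlin, caveolin-3 or calpain-3 causes limb-girdle muscular dystrophy in humans.

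Notch1 acts in the nucleus through Rbpj, whose binding sites contain the letters TGGGAA, and genes of differentiated fibers are commonly bound by MyoD family factors at the E-box CANNTG and by MEF2. The 250 bases before the start site are shown for the fiber genes with the 2 highest log2 ratios, *Dysf* and *Trim72*, chosen after their values were seen. They are RefSeq sequences of build GRCm38.p6 on the plus strand, from chr6:84008348-84008597 and chr6:84019136-84019385 for the 2 start sites of *Dysf* and from chr7:128004128-128004377 for *Trim72*. Capitals mark each match to TGGGAA, the E-box or a MEF2 motif.
*Dysf* first start site: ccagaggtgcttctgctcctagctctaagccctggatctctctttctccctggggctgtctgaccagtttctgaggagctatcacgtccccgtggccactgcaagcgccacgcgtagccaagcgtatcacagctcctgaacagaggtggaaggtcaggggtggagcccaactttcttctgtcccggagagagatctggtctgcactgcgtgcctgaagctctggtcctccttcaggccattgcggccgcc
*Dysf* second start site: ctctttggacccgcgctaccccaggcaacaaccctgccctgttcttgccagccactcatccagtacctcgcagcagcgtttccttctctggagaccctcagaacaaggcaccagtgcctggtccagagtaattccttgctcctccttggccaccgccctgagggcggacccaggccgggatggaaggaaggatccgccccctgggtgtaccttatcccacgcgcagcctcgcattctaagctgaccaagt
*Trim72*: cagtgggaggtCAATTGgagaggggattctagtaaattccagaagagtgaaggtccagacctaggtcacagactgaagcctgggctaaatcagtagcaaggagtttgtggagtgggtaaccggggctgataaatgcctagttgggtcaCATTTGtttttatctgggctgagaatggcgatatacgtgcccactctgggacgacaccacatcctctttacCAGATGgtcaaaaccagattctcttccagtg

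None of the 3 motifs was found in the 2 windows of *Dysf* on either strand, and *Trim72* had 3 E-boxes. Windows were given for 9 of the 10 genes, 11 windows in all, with none for *Anxa6*. An E-box was found in 5 of the 11, against 66.2% of 32851 windows of all genes, TGGGAA in 2 of the 11 (*Anxa2* and *Ahnak*) against 21.6%, and a MEF2 motif in 1 of the 11 (*Capn3*) against 2.92%. These matches describe letters in a window and not sites bound in these muscles.

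Spots were dim on the whole, with 45.9% to 57.3% of them well above background in a channel and none saturated. After background correction and loess within each array, 13705 genes were kept, each at its brightest probe. Replicate 2 of *mdx* was the least like the remaining muscles. Its 5 correlations with them across genes were 0.967 to 0.982, against 0.987 to 0.994 for the 10 pairs without it. Means without replicate 2 are therefore given for each measured member. In limma, 0 genes reached an adjusted p under 0.05, as with the methods' t-test after adjustment, and an unadjusted p under 0.05 was found for 555 higher (4.05%) and 335 lower genes (2.44%). At the 1.5-fold threshold of the methods with an unadjusted p under 0.05, 65 genes (0.474%) were higher and 66 (0.482%) lower in N1ICD-*mdx* muscle. This split was 30 higher and 391 lower with arrays centred on their median in place of loess, and 271 higher and 173 lower with the processed signals of Feature Extraction.

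At the brightest probes, *Dysf* was the only one of the 9 measured genes past that threshold, in the higher direction. Its normalized log2 signal was 10.30, 10.12 and 10.29 in *mdx* (replicates 1 to 3, in this order throughout). In N1ICD-*mdx* it was 10.91, 10.85 and 10.81. The groups did not overlap, and the lowest N1ICD-*mdx* muscle lay above the highest *mdx* muscle. The log2 ratio was 0.60, 0.73 and 0.52 on the 3 arrays. The mean was 0.62 (standard error 0.09 and 95% interval 0.37 to 0.86 from limma, n = 3 arrays), a 1.54-fold higher signal. In limma this had an unadjusted p = 0.00189 and an adjusted p = 0.704, and it ranked 72 of 13705 genes. The study singled out *Dysf* from these same arrays, so that its value here is no independent evidence. The mean was 0.56 without replicate 2, below the 1.5-fold threshold, and 0.38 with median centring, which placed the median of all genes at -0.18. Over the settings tried, it ran from 0.38 to 0.67 and was positive in each. An exact permutation test of the 6 log2 signals, which ignored the pairing by array, gave p = 0.1. That is the smallest p that 3 muscles against 3 allow.

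**Figure D1:**
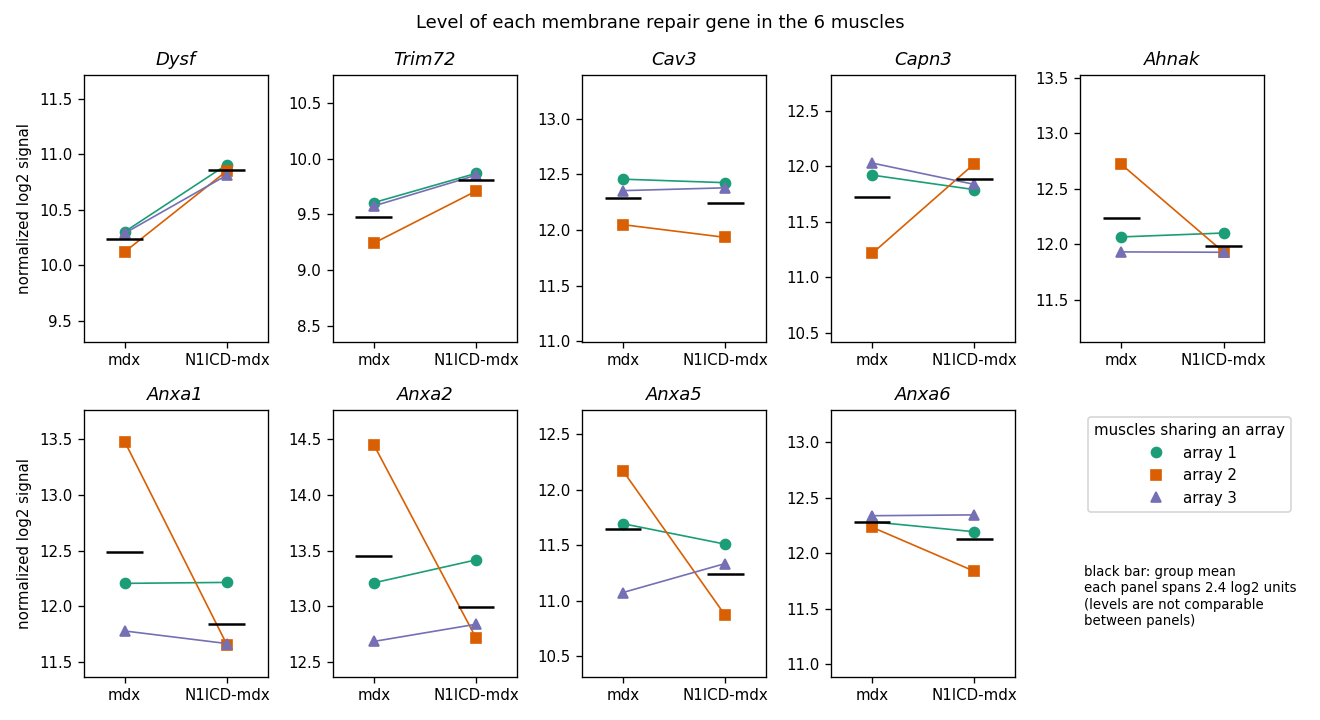
Normalized log2 signal (y axis) of 9 membrane repair genes in the 3 *mdx* and 3 N1ICD-*mdx* muscles, with lines joining the muscles of an array and black bars for group means. *Dysf* and *Trim72* are higher in N1ICD-*mdx* on every array, whereas *Anxa1*, *Anxa2* and *Anxa5* differ mainly through the *mdx* muscle of array 2.

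The median signals of the scanner for *Dysf*, before any correction, were 1701, 1010.5 and 1627 in Cy3 and 1705, 1247 and 1659 in Cy5. The Cy5 signal was the higher of the pair on each of the 3 arrays. *Trim72* gave 1045, 559 and 967 in Cy3 and 822, 542 and 817 in Cy5, lower in Cy5 on each array. *Cav3* gave 7707, 3757.5 and 6654 in Cy3 and 5122, 2761 and 5048.5 in Cy5, likewise lower in Cy5. Over all spots that were not controls, the median signal was 53, 49 and 51.5 in Cy3 and 25, 23 and 27 in Cy5. The median local background was 42, 47 and 45 in Cy3 and 17 on each array in Cy5. Uncorrected values of the 2 dyes are thus not on a common scale, and they give no direction between genotypes.

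*Trim72*, the gene of MG53, had log2 signals of 9.60, 9.24 and 9.57 in *mdx* muscles and 9.87, 9.71 and 9.85 in N1ICD-*mdx* muscles. These groups did not overlap either. The log2 ratio was 0.26, 0.47 and 0.28, with a mean of 0.34 (standard error 0.09, 95% interval 0.08 to 0.59, n = 3 arrays), a 1.26-fold higher signal. Limma gave an unadjusted p = 0.02 and an adjusted p = 0.704, and the mean did not reach 1.5-fold. It was 0.27 without replicate 2 and 0.08 with median centring. The unadjusted p of *Trim72* did not stay under 0.05 in limma with median centring (0.457), with the processed signals (0.053), without replicate 1 (0.074) or without replicate 3 (0.097), nor by the methods' t-test. *Dysf* and *Trim72* were the 2 of 9 genes with an unadjusted p under 0.05 in the higher direction (4.05% of all genes), and none of the 9 had one in the lower direction (2.44%) at its brightest probe with loess. At the brightest probes, they were also the 2 whose groups did not overlap, higher in N1ICD-*mdx* (7.68% of all genes). Likewise, only these 2 had a ratio above 0 on all 3 arrays at those probes (17.7% of all genes). None of the 9 was lower without overlap (6.25% of all genes) or below 0 on all 3 arrays (16.4% of all genes) there. Some dimmer probes of *Ahnak*, *Anxa1* and *Capn3*, given below, were below 0 on all 3 arrays. The *Ahnak* probe of NM_001286518 was above 0 on all 3. The *Ahnak* probe of NM_001039959 and the dimmer one of NM_009643 were lower without overlap. The share of all probes without overlap was not counted.

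*Cav3*, the caveolin of muscle fibers, was nearly level between the genotypes. Its log2 signal was 12.46, 12.05 and 12.35 in *mdx* and 12.43, 11.93 and 12.38 in N1ICD-*mdx* muscles, so that both muscles of replicate 2 were the lowest of their group. The log2 ratio was -0.03, -0.11 and 0.03, with a mean of -0.04 (standard error 0.09, 95% interval -0.27 to 0.19). That interval leaves room for a difference in either direction, and the mean without replicate 2 was -0.0031.

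*Capn3*, the muscle calpain, had log2 signals of 11.92, 11.22 and 12.03 in *mdx* and 11.79, 12.02 and 11.84 in N1ICD-*mdx* muscles at its brightest probe (NM_007601). The *mdx* muscle of replicate 2 was low and the other 5 muscles lay within 11.79 to 12.03. Accordingly, the ratio was 0.81 on replicate 2 against -0.13 and -0.19 on replicates 1 and 3. The mean was 0.16 (standard error 0.24, limma adjusted p = 0.835), and -0.16 without replicate 2. The dimmer probe of *Capn3* (NM_001177799), with median signals of 35.5 to 101, had -0.26, -0.02 and -0.21.

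The 4 fiber genes together had 3 positive log2 ratios and 1 negative one, and a median of 0.25, beside -0.00335 for all genes. Their median was 0.12, 0.60 and 0.15 on the 3 arrays. It was 0.13 with replicate 2 left out, 0.14 with array quality weights and 0.026 with median centring (-0.18 for all genes). Markers of muscle fibers moved with them, and the part of this in the result was not tested. Of 10 fiber markers, all 10 were measured, 9 had a positive ratio, 3 passed the 1.5-fold threshold, and the median was 0.19, 0.74 and 0.14 on the 3 arrays. The log2 of their summed signal ran from 18.5 to 18.9 in *mdx* and from 19.2 to 19.4 in N1ICD-*mdx* muscles, and all were well above background. *Dysf* lay above the median of the fiber markers on replicates 1 and 3 and level with it on replicate 2. In whole muscle, another share of cells of a type and another amount of RNA per cell cannot be told apart.

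**Figure D2:**
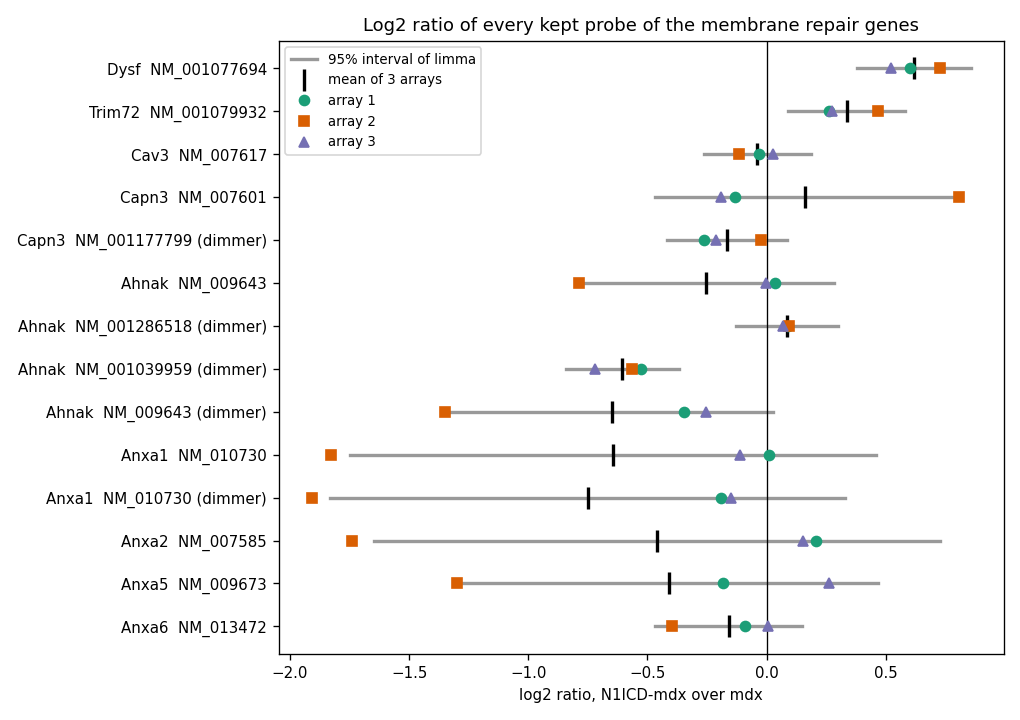
Log2 ratio of N1ICD-*mdx* over *mdx* (x axis) for 14 kept probes of 9 genes (rows, with the RefSeq transcript). Colored symbols are the 3 arrays, black ticks their means and gray bars the 95% interval of limma. Those of *Dysf*, *Trim72* and the *Ahnak* NM_001039959 probe leave out 0.

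The broadly expressed genes showed another pattern. *Anxa1*, a regulator of inflammation as well as a repair protein, had log2 signals of 12.21, 13.48 and 11.78 in *mdx* and 12.21, 11.65 and 11.66 in N1ICD-*mdx* muscles. The *mdx* muscle of replicate 2 exceeded every other muscle by more than 1 log2 unit, and the other 5 overlapped. The log2 ratio was 0.01, -1.83 and -0.11, with a mean of -0.64 (standard error 0.41, 95% interval -1.76 to 0.47, limma adjusted p = 0.706). Without replicate 2 the mean was -0.05. A second *Anxa1* probe had -0.19, -1.91 and -0.15.

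*Anxa2*, which binds S100A10 in a complex at the membrane, had 13.21, 14.45 and 12.68 in *mdx* and 13.42, 12.71 and 12.84 in N1ICD-*mdx* muscles. Again the *mdx* muscle of replicate 2 was the highest. The log2 ratio was 0.21, -1.74 and 0.15, positive on replicates 1 and 3, and the mean of -0.46 (standard error 0.44, limma adjusted p = 0.766) became 0.18 without replicate 2.

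*Anxa5*, the annexin that assembles in lattices on exposed phosphatidylserine, had 11.69, 12.17 and 11.07 in *mdx* and 11.51, 10.87 and 11.34 in N1ICD-*mdx* muscles. Its log2 ratio was -0.18, -1.30 and 0.26. The mean of -0.41 (standard error 0.33, limma adjusted p = 0.735) became 0.04 without replicate 2.

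*Anxa6*, a large annexin with a doubled core that is abundant in muscle, varied least of the annexins among the *mdx* muscles. Its log2 signal was 12.28, 12.23 and 12.34 in *mdx* and 12.19, 11.84 and 12.34 in N1ICD-*mdx* muscles. Here it was the N1ICD-*mdx* muscle of replicate 2 that was low, and the log2 ratio was -0.09, -0.40 and 0.01 (mean -0.16, standard error 0.12, limma adjusted p = 0.715). Leaving out replicate 2 gave -0.04. The SD of the log2 signal over the *mdx* muscles was 0.05 for *Anxa6*, against 0.89 for *Anxa1*, 0.91 for *Anxa2* and 0.55 for *Anxa5*. Over the N1ICD-*mdx* muscles the SD was 0.26, 0.32, 0.37 and 0.33 in the same order.

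A log2 ratio below -1 on the array of replicate 2 was found for 3 of the 9 genes, *Anxa1*, *Anxa2* and *Anxa5*, and for 5.67% of all genes. The 5 measured broadly expressed genes all had a negative mean, with a median of -0.41. By array, the median was 0.01, -1.30 and 0.01. Leaving out replicate 2 gave 0.02, array quality weights -0.03 and median centring -0.59 (-0.18 for all genes). None had an unadjusted p under 0.05 in limma at its brightest probe with loess.

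Macrophage markers moved with *Anxa1*, *Anxa2* and *Anxa5*, and the part of this in the result was not tested. All 12 markers were measured, and 11 had a negative mean log2 ratio. All 12 were negative on replicate 2 and 7 each on replicates 1 and 3. Their median by array was -0.08, -1.73 and -0.11, or -0.10 when replicate 2 was left out. The log2 of their summed signal was 14.9, 15.9 and 14.3 in *mdx* and 14.9, 14.0 and 14.2 in N1ICD-*mdx* muscles. The *mdx* muscle of replicate 2 was highest and the N1ICD-*mdx* muscle of replicate 2 lowest, as for *Anxa1* and *Anxa5*. For *Anxa2* the highest muscle was the same but the lowest was *mdx* replicate 3, and for *Anxa6* the highest was N1ICD-*mdx* replicate 3. Fibroblast markers, 9 of 9 measured, had medians of 0.77, -0.26 and 0.08, also lowest on replicate 2.

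**Figure D3:**
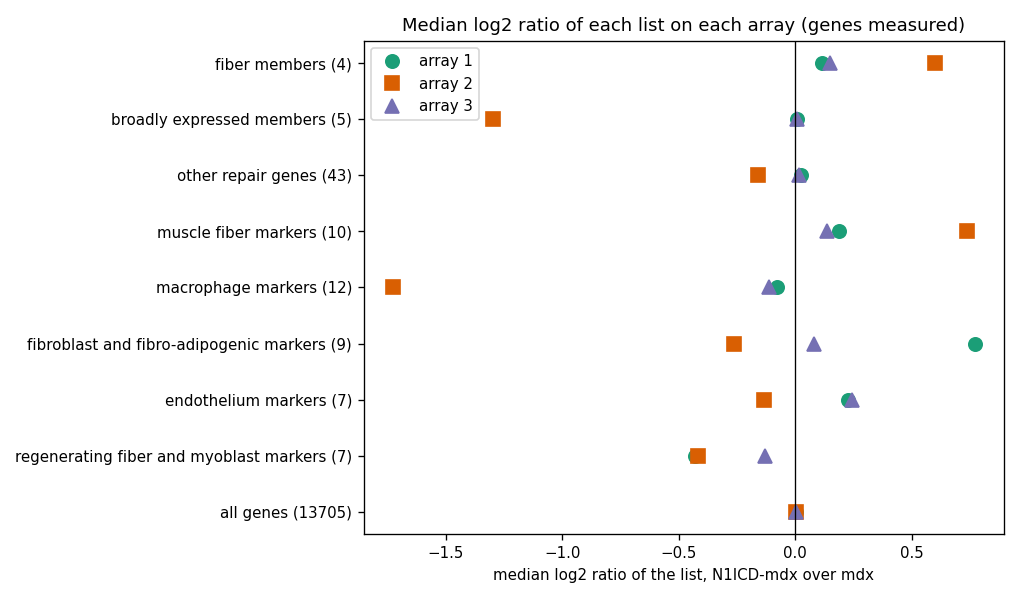
Median log2 ratio of N1ICD-*mdx* over *mdx* (x axis) of each gene list (rows, with the number of genes measured) on each of 3 arrays (symbols). On array 2 the broadly expressed members (-1.30) lie near the macrophage markers (-1.73), and the fiber members (0.60) near the muscle fiber markers (0.74).

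*Ahnak*, a very large scaffold protein that associates with dysferlin and annexin 2, had 4 probes, and they did not give a single value. The brightest (NM_009643) had log2 signals of 12.07, 12.72 and 11.93 in *mdx* and 12.10, 11.93 and 11.93 in N1ICD-*mdx* muscles. Only the *mdx* muscle of replicate 2 stood out, and the ratio was 0.04, -0.79 and -0.00317 (mean -0.25, standard error 0.20, limma adjusted p = 0.731), with a mean of 0.016 without replicate 2. A dimmer probe of that transcript had -0.35, -1.35 and -0.25.

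The probe of transcript NM_001286518 was steady, with log2 ratios of 0.09, 0.10 and 0.07. The probe of NM_001039959 was lower in N1ICD-*mdx* muscle on each array, with -0.53, -0.57 and -0.72. Its log2 signals were 9.25, 9.29 and 8.95 in *mdx* and 8.73, 8.72 and 8.23 in N1ICD-*mdx* muscles, which did not overlap. In the fit over 17813 probes its mean was -0.60 (standard error 0.09, 95% interval -0.84 to -0.37), with an unadjusted p = 0.00176 and an adjusted p = 0.687 in limma. It passed the 1.5-fold threshold, as did 0.483% of all probes in that direction. The log2 ratio of this probe was below that of the NM_001286518 probe by 0.62, 0.66 and 0.79 on the 3 arrays, a gap that was similar on replicate 2. Which transcripts each probe binds was not tested, and the study listed this probe from these same arrays.

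**Figure D4:**
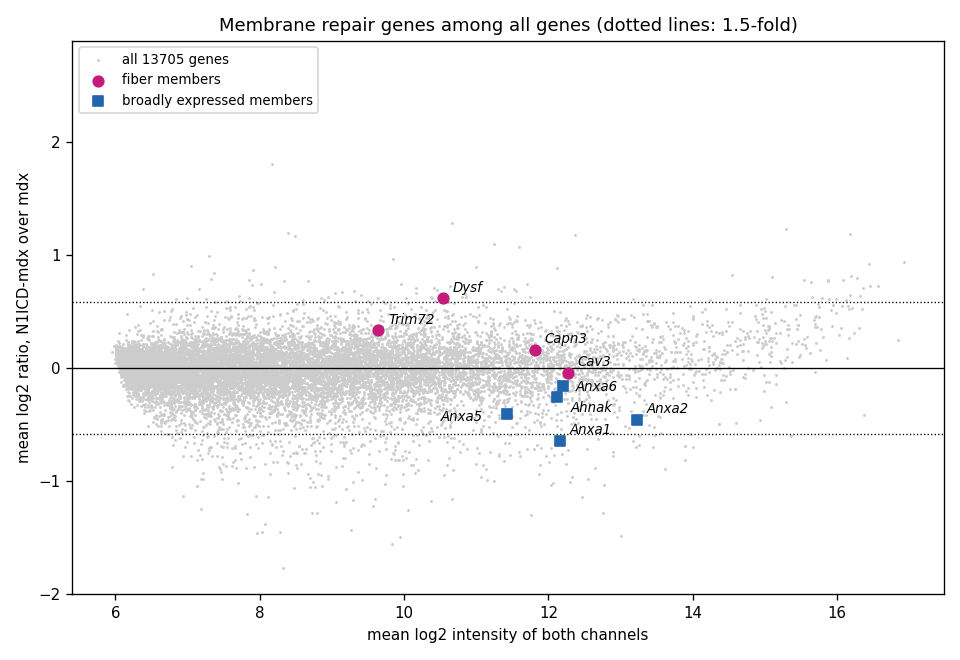
Mean log2 ratio of N1ICD-*mdx* over *mdx* (y axis) against mean log2 intensity (x axis) for 13705 genes in gray, with 4 fiber members (circles) and 5 broadly expressed members (squares). Dotted lines mark 1.5-fold, which *Dysf* passes upward and *Anxa1* downward (-0.64), the latter with an unadjusted p of 0.19 in limma and a mean of -0.05 without replicate 2.

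A wider list of 51 repair genes, with the other annexins, calpains, cavins and the ESCRT and vesicle fusion machinery, gave 43 measured genes. The log2 ratio was positive for 15 of these and negative for 28, the median was -0.07, and 1 passed the 1.5-fold threshold. The sign of that median rested on replicate 2. By array it was 0.03, -0.16 and 0.01, with 18, 27 and 20 negative genes, and it was 0.0097 without replicate 2. That gene was *Tcap*, which encodes telethonin of the Z-disc and T-tubule, with a log2 ratio of 0.37, 1.30 and 0.77 (mean 0.81, standard error 0.20, limma adjusted p = 0.704). The mean was 0.57 without replicate 2. *Cavin2*, a coat protein of caveolae, had 0.78, -0.02 and 0.57. *Ehd3*, an endosomal ATPase, had a mean of 0.20 and *Chmp2b*, an ESCRT subunit, 0.13. In the other direction, *Capn1*, a ubiquitous calpain, had -0.47, -0.22 and -0.40 (mean -0.36, standard error 0.10, unadjusted p = 0.0174 and adjusted p = 0.704 in limma). *Capns1*, its small subunit, had -0.07, -0.52 and -0.20 (mean -0.27, or -0.14 without replicate 2). *Capn1* was negative on all 3 arrays, whereas the brightest probe of *Capn3* was positive on replicate 2.

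Of the 8 other annexins, 6 were measured, and their mean log2 ratios ran from -0.64 to 0.05. The lowest was *Anxa4*, with -0.18, -1.45 and -0.29 (mean -0.64, or -0.24 without replicate 2). *Lgals3*, a galectin that marks damaged membranes and is abundant in macrophages, had -0.20, -3.69 and -0.57 (mean -1.49, or -0.38 without replicate 2). The annexin partners *S100a10* (0.20, -0.79 and -0.03) and *S100a11* (0.20, -0.76 and 0.35) likewise had their lowest ratio on replicate 2. Among genes of caveolae, the mean log2 ratio was -0.07 for *Cav1*, 0.14 for *Cav2*, -0.07 for *Cavin1*, 0.15 for *Cavin3* and -0.02 for the muscle cavin *Cavin4*, and none had an unadjusted p under 0.05. Without replicate 2 these means were 0.28, 0.27, 0.13, 0.29 and -0.21 in the same order, so that *Cav1* and *Cavin1* changed sign.

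The genes most like *Dysf* over the 6 muscles were found by the root mean square (RMS) difference of log2 signals, each gene centred on its own mean. They were *Mdh1*, a malate dehydrogenase (RMS difference 0.0432), *Ndufb10*, a complex I subunit (0.0603), *Cycs*, cytochrome c (0.0649), and *Atp5g1*, an ATP synthase subunit (0.0691), where *Dysf* itself had an RMS deviation of 0.316. Those most like *Anxa2* (RMS deviation 0.612) were *E2f1*, a cell cycle transcription factor (0.0554), *Pgam1*, a glycolytic enzyme (0.0696), *Tuba1b*, an α-tubulin (0.0803), and *Lig1*, a DNA ligase (0.0808). With 6 muscles, such a likeness rests on the split between genotypes for *Dysf* and on 1 *mdx* muscle for *Anxa2*.

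**Figure D5:**
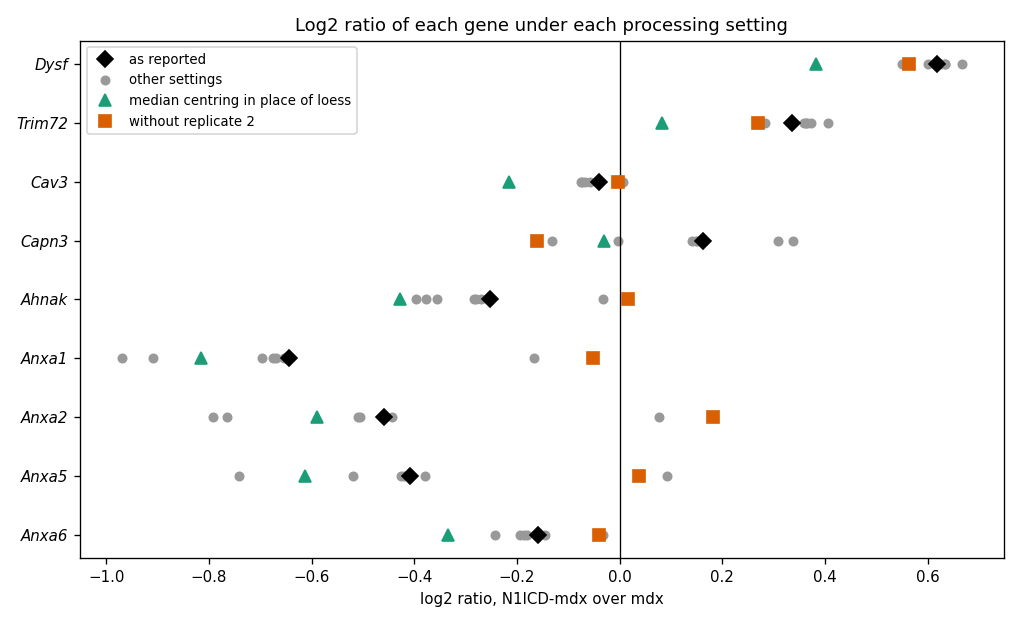
Log2 ratio of N1ICD-*mdx* over *mdx* (x axis) of 9 genes (rows) as reported (diamonds), without replicate 2 (squares), with median centring (triangles) and under the other settings (gray). *Dysf* stays between 0.38 and 0.67 and *Trim72* above 0, whereas *Anxa2*, *Anxa5*, *Ahnak* and *Capn3* change sign without replicate 2.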

How the data were processed

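TA muscle RNA of 6 mice was hybridized to 3 two-color Agilent arrays (SurePrint G3), *mdx* in Cy3 and N1ICD-*mdx* in Cy5. The intensity values as deposited are median signals of spots and local background from Agilent Feature Extraction (11.5 per the labels, 11.5.1.1 per the file headers), beside processed signals that it had background-subtracted and dye-normalized. Median signals were corrected by normexp (offset 50), normalized by loess within arrays with control spots at weight 0, and for log2 signals by Aquantile, in limma 3.58.1 (R 4.3.3). The 794 outlier spots were left out. Probes were kept when well above background on all 3 arrays in a channel, and named through RefSeq accessions of GRCm38.p6 (28026 of 55681 probes). The 3 log2 ratios were fitted with an intercept, two-sided, at the brightest kept probe of a gene, with Benjamini-Hochberg adjustment over 13705 genes. Standard errors, intervals and p-values from limma rest on a variance that is moderated by the variances of all genes fitted. The ratio pairs the muscles that shared an array, which the labels give by naming 1 scan for both. Nothing in the labels says how the animals were related. Limma p-values measure the spread of the ratios between these arrays, with that moderated variance.

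Members and lists were chosen with earlier results of these data known. Named genes are all members and their probes, the repair genes past the threshold, the 4 with the smallest p in each direction, cavins, caveolins and S100 partners, the 2 brightest of each marker list, and the 4 genes most like *Dysf* and *Anxa2*. Some marker genes are not reported here. The fit was tested on simulated ratios with planted differences and independent noise. These held no dye effect and no shift shared by the genes of a muscle, so that the test does not bear on either. Alternatives were the processed signals, background correction, centring, filters, probe averaging, variance models, array weights, left-out replicates, an unpaired fit and the methods' t-test.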

Additional observations from a re-analysis of the deposited data

How the results depend on the processing

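With 3 arrays, precision was limited by their number. At 1.5-fold and an unadjusted p under 0.05, 131 genes passed, against 444 with the processed signals, 222 with a normexp offset of 10, 421 with median centring, 67 by the methods' t-test, 206 with array quality weights and 185 to 207 when 1 replicate was left out. An adjusted p under 0.05 was reached by no gene, by 1 with no replicate block, by 1 with array quality weights and by 0 to 3 with 1 replicate left out. With no replicate block, 124 genes passed the 1.5-fold threshold and 104 of them were among the 131, and no member's call changed. Deviations of the paired muscles from their group means correlated at -0.0226, -0.294 and 0.334. Of the 9 members, 1 passed, and 0 with median centring, with array quality weights or without replicate 2 (0 to 1 over the left-out replicates). *Dysf* fell short of 1.5-fold with median centring (0.38), with array quality weights (0.55) and without replicate 2 (0.56), where it ran from 0.56 to 0.67 over the left-out replicates. The weights were 1.1, 0.24 and 3.78 for replicates 1, 2 and 3.

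*Capn3* turned negative with median centring (-0.030), the mean over its probes (-0.0026), array quality weights (-0.13), at its NM_001177799 probe (-0.17) and without replicate 2 (-0.16 to 0.34 over the left-out replicates). *Cav3* turned to 0.0065, *Anxa2* to 0.077 and *Anxa5* to 0.092 with array quality weights. Over the left-out replicates, *Ahnak* ran from -0.40 to 0.016, *Anxa2* from -0.79 to 0.18 and *Anxa5* from -0.74 to 0.038, each positive without replicate 2 alone. *Anxa1* ran from -0.97 to -0.05, nearest 0 without replicate 2. The unadjusted limma p was under 0.05 for *Anxa6* with median centring (-0.33) and for *Ahnak* with the mean over its probes (-0.36), both below 1.5-fold. The NM_001286518 probe of *Ahnak* had 0.085 and the NM_001039959 probe -0.60.

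Median centring moved the median log2 ratio of Schwann cell markers to -0.33, endothelium to -0.12, other repair genes to -0.26, pericytes and smooth muscle to -0.13, regenerating fibers to -0.58, tendon to -0.29 and satellite cells to -0.079. The 4 measured satellite cell markers, whose medians differed little between arrays, also moved to 0.17 with the processed signals, 0.11 with no background correction, 0.14 with an offset of 10, -0.017 with no filter or a filter on both channels, and 0.021 with the mean over probes, and ran from 0.057 to 0.084 over the left-out replicates. The median of all genes was itself -0.18 with median centring and 0.04 with the processed signals, against -0.00335 as reported. The cause of these changes was not tested.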

Other observations

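Markers of regenerating fibers and myoblasts had a negative log2 ratio for 5 of 7 genes, with a median of -0.43, -0.42 and -0.13 on the 3 arrays. *Myh8*, the perinatal myosin heavy chain and the brightest of them, had 0.54, 1.33 and 0.26, and *Chrna1*, an acetylcholine receptor subunit, -0.65, -0.98 and 0.07. Of the 7, *Myh8* passed 1.5-fold with an unadjusted p under 0.05 in the higher direction, and 2 passed in the lower direction, named here after their values were seen. The 2 lower ones were *Myog*, the transcription factor myogenin, with -1.14, -1.41 and -0.27, and *Myh3*, the embryonic myosin heavy chain, with -1.02, -0.42 and -0.75. *Myh8* had 2 kept probes, and only the brightest is given here. The gene belongs to a family of similar myosin heavy chain genes, and which transcripts its probe binds was not tested. Markers of red blood cells had medians of -1.16, 0.01 and 0.65, with -1.07, 0.16 and 0.65 for *Hba-a1* and -1.19, -0.07 and 0.65 for *Hbb-b1*. Adipocyte markers had medians of -0.39, 0.71 and 0.75, with -0.85, 0.52 and 0.79 for *Adipoq* and -0.32, 0.90 and 0.79 for *Cidec*.

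The brightest macrophage markers were *Csf1r* (0.02, -1.12 and -0.12) and *Ctss* (0.09, -2.65 and -0.33), and the brightest fiber markers *Tnni2* (0.55, 0.96 and 0.68) and *Acta1* (0.75, 1.21 and 0.80). *Dcn* (0.46, 0.72 and 0.14) and *Col1a2* (0.99, -1.15 and 0.19) were the brightest fibroblast markers. The mean log2 ratio was -0.59 for *Kdr* and -0.13 for *Esam* of endothelium (list median 0.12), 0.27 for *Rgs5* and -0.18 for *Acta2* of pericytes and smooth muscle (0.11), 0.05 for *Nkg7* and -0.48 for *Cd3e* of lymphocytes (-0.19), and 0.01 for *Prx* of Schwann cells (-0.10). It was -0.06 for *Scx* and -0.12 for *Fmod* of tendon (-0.06), and -0.07 for *Cdh15* and 0.20 for *Chodl* of satellite cells (0.09). Markers that were not kept included *Myf5*, *Lep* and *Cd3g*.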
